A study of Mus musculus with 46 samples.

Results

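Of 46 single-cell libraries of oriens-lacunosum moleculare (OLM) interneurons, 19 held transcripts of Mbp, the gene of myelin basic protein, at 100 CPM or more, and 16 held it below 10 CPM. These are called the Mbp-high and the Mbp-low libraries, and the 11 libraries from 10 to below 100 CPM belong to neither. CPM, short for counts per 1000000, is the read count of a gene divided by all counts of that library and scaled to that total. OLM cells are somatostatin-expressing inhibitory neurons of the hippocampus with somata in stratum oriens and axons in stratum lacunosum-moleculare. The mice were postnatal day 21 to 30 old and carried Cre recombinase driven from Htr3a or from Sst, and each cell was labelled OLM and had passed quality control. The cytosol of each cell was drawn into a patch-clamp pipette and sequenced. A Cre line marks cells by a driver gene and does not by itself define a cell type. The Mbp-high libraries were 8 of the Htr3a line and 11 of the Sst line, and the Mbp-low libraries were 8 of each. No treatment is named in the labels. Every library stands for 1 cell, and no label ties a cell to a mouse, so cells of a group may share mice. Each group was therefore treated as 1 sample, and differences are described without a test.

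Myelin is the multilayered membrane that oligodendrocytes wrap around axons. Its compaction needs myelin basic protein. The mRNAs of Mbp and of Mobp, a basic protein of compact myelin, are carried along oligodendrocyte processes and translated near the sheath. The Mbp locus also gives rise to the golli transcripts, which neurons and immune cells make, and counts per gene do not separate these from the classic myelin transcripts.

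The libraries were chosen by their Mbp values, which are therefore given as a description. Mbp spanned 106 to 11864 CPM with a median of 508 in the Mbp-high libraries, and 0 to 7.53 CPM in the Mbp-low ones, 9 of which held no Mbp read. The Mbp-high library nearest to its limit was at 106 CPM, and the nearest one outside was at 87.8 CPM. The Mbp-low library nearest to its limit was at 7.53 CPM, and the nearest one outside was at 28.1 CPM. The upper limit therefore crosses a continuous range of values, while the lower limit lies in a gap, as the plot of Mbp by library shows. Mbp lies on chromosome 18 from 82475091 to 82585637 (GRCm38).

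**Figure D1:**
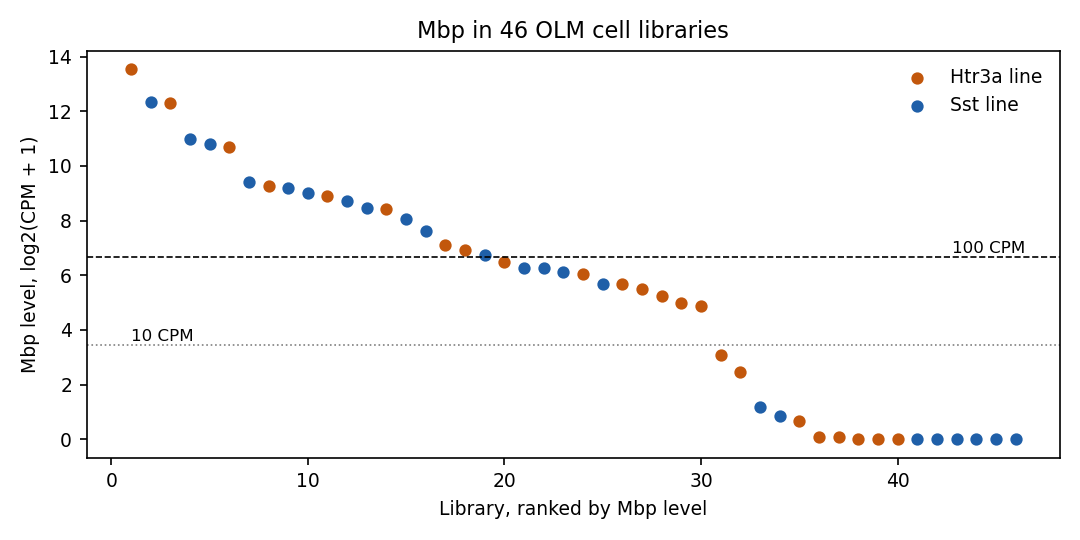
Mbp level, log2(CPM + 1), in each of the 46 libraries ranked from highest to lowest, coloured by driver line, with dashed and dotted lines at 100 and 10 CPM. The 19 libraries above the dashed line and the 16 below the dotted line hold cells of both lines.

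Total counts ran from 5639490 to 28283907 in the Mbp-high libraries and from 3391829 to 31386369 in the Mbp-low ones. The median number of genes with a read was 6860 and 6722, or 6686 and 6579 after every library was thinned to 5000000 reads, which left out 1 shallower cell. An Mbp-high library stands apart: Htr3a line replicate 4 had the highest Mbp value and only 4 reads of Gad1, the gene of a GABA-synthesising enzyme that an OLM cell should express. An Mbp-low library also stands apart: Htr3a line replicate 20 was the shallowest, with 24 Gad1 reads. Replicate numbers follow the order of the deposited samples and name cells only. Sst, the gene that marks OLM cells among others, was read in all 19 Mbp-high and all 16 Mbp-low libraries, while Chrna2, an OLM marker, was read in 5 and 6 of them.

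For each gene the difference below is the mean of log2(CPM + 1) over the Mbp-high libraries minus the mean over the Mbp-low ones, and a difference of at least 1 in size is called past the 2-fold mark. Without Mbp, 11029 genes had a mean of at least 0.5 over both groups. Of these, 2025 (18.4%) were past the mark upward and 914 (8.29%) downward, and these shares are the background for the counts that follow. Size factors from DESeq2's poscounts method moved these counts to 1491 upward and 1304 downward. The median difference over all genes was 0.22 with CPM and 0.04 with those factors, so small differences are read against that shift. The median was 0.51 among Htr3a-line cells and -0.01 among Sst-line cells.

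The naming rule given with the processing left out genes whose summed CPM or share of cells with a read went the other way. Among the genes it kept, the largest differences belonged to few myelin genes and many microglial ones. The 12 highest included Mobp, Ctss, C1qa, C1qb and C1qc. Ctss encodes the lysosomal protease cathepsin S of microglia and macrophages. C1qa, C1qb and C1qc encode the chains of the complement component C1q made by microglia in the brain. The promoter sequences of Mobp, Ctss and C1qb are shown because these genes represent the oligodendrocyte and the microglial sides of the pattern. Each run is the 250 bases before the transcript start in RefSeq, build GRCm38.p6, read 5′ to 3′ on the strand of the gene. Capitals mark GAGGAA, a word found in binding sites of the myeloid factor PU.1, and ACAAAG, a word found in binding sites of SOX factors, or their reverse complements TTCCTC and CTTTGT.

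Mobp, chr9:120149492-120149741, plus strand: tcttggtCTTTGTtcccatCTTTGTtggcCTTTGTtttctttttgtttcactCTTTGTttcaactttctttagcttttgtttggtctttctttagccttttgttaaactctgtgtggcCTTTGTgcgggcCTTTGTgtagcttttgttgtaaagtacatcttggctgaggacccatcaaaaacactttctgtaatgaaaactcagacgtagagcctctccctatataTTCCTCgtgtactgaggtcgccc

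Ctss, chr3:95526536-95526785, plus strand: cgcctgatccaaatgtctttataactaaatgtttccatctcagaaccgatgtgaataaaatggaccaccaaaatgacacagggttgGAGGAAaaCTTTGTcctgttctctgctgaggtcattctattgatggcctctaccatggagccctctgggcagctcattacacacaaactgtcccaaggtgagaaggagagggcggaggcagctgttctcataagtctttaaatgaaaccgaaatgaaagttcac

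C1qb, chr4:136886201-136886450, minus strand: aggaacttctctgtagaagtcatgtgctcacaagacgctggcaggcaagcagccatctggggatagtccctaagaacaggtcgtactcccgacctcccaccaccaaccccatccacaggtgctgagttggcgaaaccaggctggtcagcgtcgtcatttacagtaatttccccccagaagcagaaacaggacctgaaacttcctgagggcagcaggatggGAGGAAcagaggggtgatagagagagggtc

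On either strand the Mobp window held ACAAAG 6 times and GAGGAA 1 time, Ctss held each 1 time, and C1qb held GAGGAA 1 time and ACAAAG 0 times. Of 32851 RefSeq promoter windows of the same length, 23.3% held GAGGAA and 16.5% held ACAAAG. The 2 words do not overlap each other in these windows. A match describes the letters and is not a binding site, and the libraries give no measure of factor binding.

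Of the myelin genes described here, Mobp followed Mbp most closely. It ranged from 0 to 1831 CPM with a median of 84.1 in the Mbp-high libraries, and from 0 to 30.1 CPM with a median of 0 in the Mbp-low ones. It was read in 11 of 19 Mbp-high libraries (57.9%, exact 95% interval 33.5 to 79.7) and in 3 of 16 Mbp-low ones (18.8%, 4.0 to 45.6), and all 11 of the former were at 10 CPM or more against 1 of the latter. Of the 12 libraries with the highest Mobp, 11 were Mbp-high and 0 Mbp-low. The groups overlapped at 0, since 8 Mbp-high libraries had no Mobp read, among them Sst line replicate 22, which was second in Mbp. Mean log2(CPM + 1) was 4.82 ± 4.46 (SD between cells, n = 19) and 0.32 ± 1.24 (n = 16), a difference of 4.50, or 5.48 within the Htr3a line and 3.87 within the Sst line. It was 4.16 without Htr3a line replicates 4 and 20. Mobp lies on chromosome 9 from 120149742 to 120181488, and 1 gene model of the same strand overlaps its exons.

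Cnp, which encodes a phosphodiesterase of non-compact myelin, ranged from 0 to 503 CPM with a median of 36.3 in the Mbp-high libraries and from 0 to 137 CPM with a median of 2.53 in the Mbp-low ones. It was at 10 CPM or more in 11 of 19 and 6 of 16 libraries, and in 10 of the 11 between the limits, so the groups overlapped widely. Across the 46 cells, which share the total that CPM divides by, Spearman's rho with Mbp was 0.55 for Mobp and 0.23 for Cnp. The difference of Cnp was 1.22, and it fell to 0.93 without Sst line replicate 14 and to 0.999 without Sst line replicate 16. Exons of Cnp overlap a gene of the other strand, and reads of the 2 genes may not have been separated, since no strand setting is stated.

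Several other sheath genes were rare in both groups. Mag, an adhesion protein of the inner myelin layer, was at 10 CPM or more in 2 Mbp-high and 0 Mbp-low libraries, as was Mog, a protein of the outer layer. Mal, a raft protein of myelin, was at 10 CPM or more in 1 Mbp-high library and 0 Mbp-low ones. No read of Cldn11, the claudin of myelin tight junctions, Opalin or Gjb1 was found in either group, and 0 of 19 and 0 of 16 cells allow shares of cells with a read of up to 15.8% and 18.8%. Omg, Tspan2, Jam3 and Cd9, which neurons also express, had differences of 0.65, 0.48, 0.81 and 0.37, none past the mark. Omg was common on both sides, with reads in 18 of 19 and 15 of 16 libraries and medians of 329 and 325 CPM. Tspan2 was read in 15 and 10 libraries, Jam3 in 11 and 7, and Cd9 in 5 and 4. Of the 15 sheath genes in the list used here, which leaves Mbp out, 8 reached the mean of 0.5. Past the mark upward were 2 (Mobp and Cnp) and downward 0, against 18.4% and 8.29% of all genes. The median difference was 0.56 over the 8 that reached the mean and 0.48 over all 15, beside 0.22 over all genes. It was 0.83 over the members that reached the mean without Htr3a line replicates 4 and 20. It fell to 0.33 without Htr3a line replicate 6 or Sst line replicate 17.

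**Figure D2:**
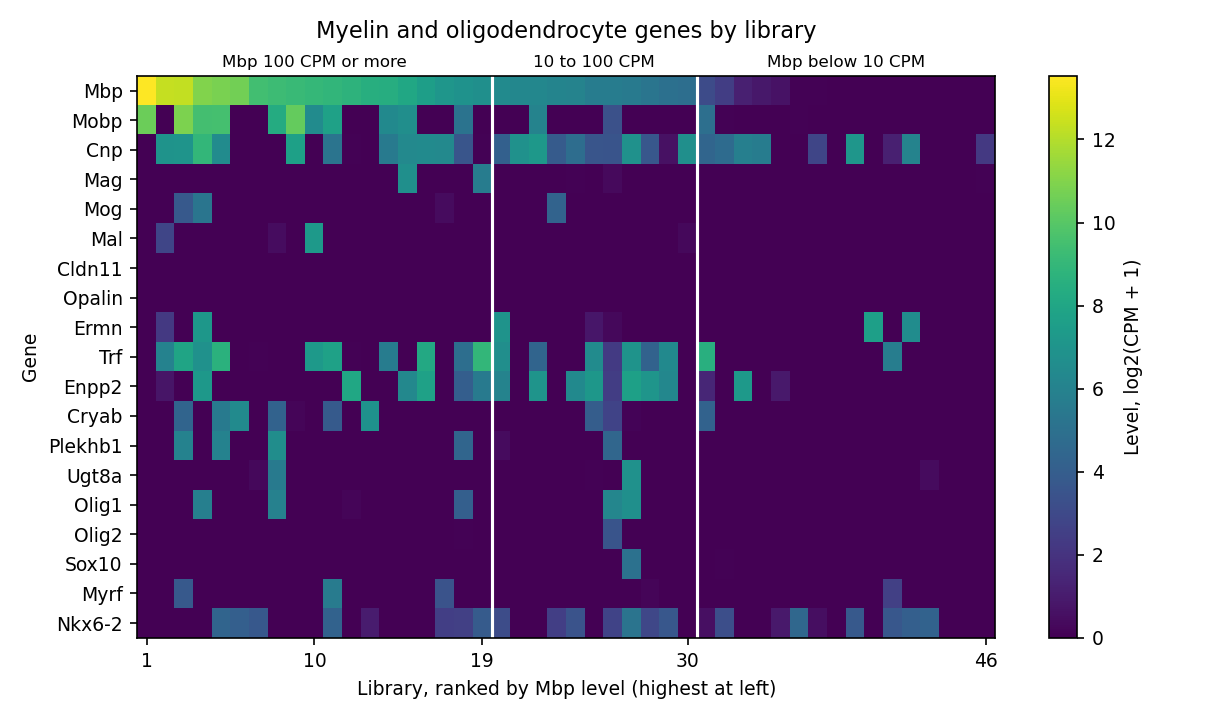
Level, log2(CPM + 1), of 19 myelin and oligodendrocyte genes (rows) in the 46 libraries (columns, ranked by Mbp with the highest at left), with white lines between the 19 Mbp-high libraries, the 11 in between and the 16 Mbp-low ones. Mobp is filled in 11 Mbp-high columns, Cnp is filled on both sides, and Cldn11 and Opalin are empty.

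Counted per library, 15 of the 19 Mbp-high libraries held at least 1 of Mobp, Cnp, Mag, Mog and Mal at 10 CPM or more, against 6 of the 16 Mbp-low ones. Of the 11 libraries between the limits 10 did, with Cnp at 10 CPM or more in 10 and Mobp in 1. Having at least 1 was thus not particular to the Mbp-high libraries. Of the Mbp-high libraries, 6 held 1 of these 5 genes, 6 held 2, 3 held 3 and 0 held 4 or 5. The 4 that held 0 of them included Htr3a line replicate 21, at 1634 CPM of Mbp. The others were Sst line replicates 3, 8 and 21, at 687, 422 and 351 CPM of Mbp. In the library with the highest Mbp, Htr3a line replicate 4, Mobp stood at 1449 CPM while Cnp stood at 0.

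Other products of oligodendrocytes differed in direction. Trf, the iron carrier transferrin, which oligodendrocytes express strongly, was at 0 to 496 CPM with a median of 29.04 in the Mbp-high libraries and at 0 to 371 CPM with a median of 0 in the Mbp-low ones. It was read in 12 of 19 and 2 of 16 libraries, and the Mbp-low maximum lay inside the Mbp-high range. Trf was at 10 CPM or more in 10 of 19 Mbp-high, 6 of 11 intermediate and 2 of 16 Mbp-low libraries. Its difference was 2.92. Enpp2, the lysophospholipase autotaxin, the small heat shock protein Cryab, the glycolipid carrier Gltp and the membrane protein Plekhb1 had differences of 1.48, 1.39, 1.28 and 1.21. That of Gltp fell to 0.98 without Htr3a line replicate 7. That of Plekhb1 fell to 0.91 when Htr3a line replicate 3 was left out, and to 0.95 without Htr3a line replicate 7 or Sst line replicate 5. Gpr37, a receptor of maturing oligodendrocytes, had a difference of -1.51, with reads in 2 Mbp-high and 7 Mbp-low libraries. Of the 20 genes of this list, which holds lipid enzymes and transport proteins, 13 reached the mean, and their median difference was -0.18. Past the mark upward were 5 and downward 1, against 18.4% and 8.29% of all genes. Fa2h, which hydroxylates myelin lipids, Aspa, Hapln2 and Klk6 had no read in either group.

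Transcription factors of the oligodendrocyte lineage were sparse in both groups. Their sum was at 10 CPM or more in 10 of 19 Mbp-high and 6 of 16 Mbp-low libraries, with maxima of 66.6 and 88.5 CPM. Olig1 was read in 4 Mbp-high and 0 Mbp-low libraries, and its highest value was 60.4 CPM. Olig2 was read in 1 Mbp-high library at 0.04 CPM, and Sox10 in 1 Mbp-low library at 0.05 CPM. Myrf, which drives myelin genes, was read in 3 and 1 libraries. Nkx6-2 was the only factor of the 8 whose mean reached 0.5, at a difference of -0.20. Genes of precursor and differentiating oligodendrocytes summed to 10 CPM or more in 18 of 19 Mbp-high and 8 of 16 Mbp-low libraries. The median sums were 97.2 and 6.17 CPM, with 131 and 0.42 CPM in the Htr3a line and 84.8 and 62.6 CPM in the Sst line. Of these 10 genes, 1 was past the mark upward and 0 downward, against 18.4% and 8.29% of all genes.

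Microglial genes differed more than the myelin genes did. All 12 genes of the microglia list reached the mean and all were past the mark upward, where 18.4% of all genes were, and 0 were downward. Their median difference was 3.02. Among Htr3a-line cells 11 of 12 were past the mark upward, with a background of 35.6% and a median of 2.44. Among Sst-line cells all 12 were, with a background of 20.3% and a median of 3.93. The list's median stayed between 2.79 and 3.52 when any single library was left out, and it was 2.76 with poscounts factors. Its size depended more on the summary. It was 1.69 as the log2 ratio of CPM summed over each group, and 6.18 as a difference of medians. With a pseudocount of 10 CPM in place of 1 it was 1.90.

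Ctss ran from 0 to 1678 CPM with a median of 274 in the Mbp-high libraries and from 0 to 1254 CPM with a median of 0 in the Mbp-low ones. It was read in 15 of 19 and 6 of 16 libraries, and the groups overlapped from 0 upward. Mean log2(CPM + 1) of Ctss was 6.91 ± 3.84 (SD between cells, n = 19) and 2.21 ± 3.54 (n = 16), a difference of 4.70. C1qb ran from 0 to 2106 CPM with a median of 341 in the Mbp-high libraries and from 0 to 3015 CPM with a median of 0.02 in the Mbp-low ones. The difference of C1qb was 4.58, but 0.89 as the log2 ratio of CPM summed over each group. Those of C1qc, Aif1 and C1qa were 4.56, 3.98 and 3.79. Aif1 encodes the actin-binding protein Iba1 of microglia. P2ry12, the purinergic receptor of resting microglia, differed by 3.10, Tyrobp, the adaptor of Trem2, by 2.95, and Tmem119, a marker of brain-resident microglia, by 2.47.

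Summed over the 12 genes, the microglial level ran from 0 to 11451 CPM with a median of 2236 in the Mbp-high libraries and from 0.05 to 11473 CPM with a median of 102 in the Mbp-low ones. It was 1000 CPM or more in 13 of 19 Mbp-high, 4 of 11 intermediate and 3 of 16 Mbp-low libraries. The overlap came from both ends. The Mbp-low library with the highest sum was Htr3a line replicate 11, and the Mbp-high library with a sum of 0 was Htr3a line replicate 4, the one with the most Mbp. Over the 46 cells Spearman's rho between Mbp and the microglial sum was 0.47, among Htr3a-line cells 0.29 (n = 23) and among Sst-line cells 0.64 (n = 23). Within the 19 Mbp-high libraries it was 0.03, and the plot of glial sums against Mbp shows no gradient there. These are descriptions, and all points share the total that CPM divides by.

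**Figure D3:**
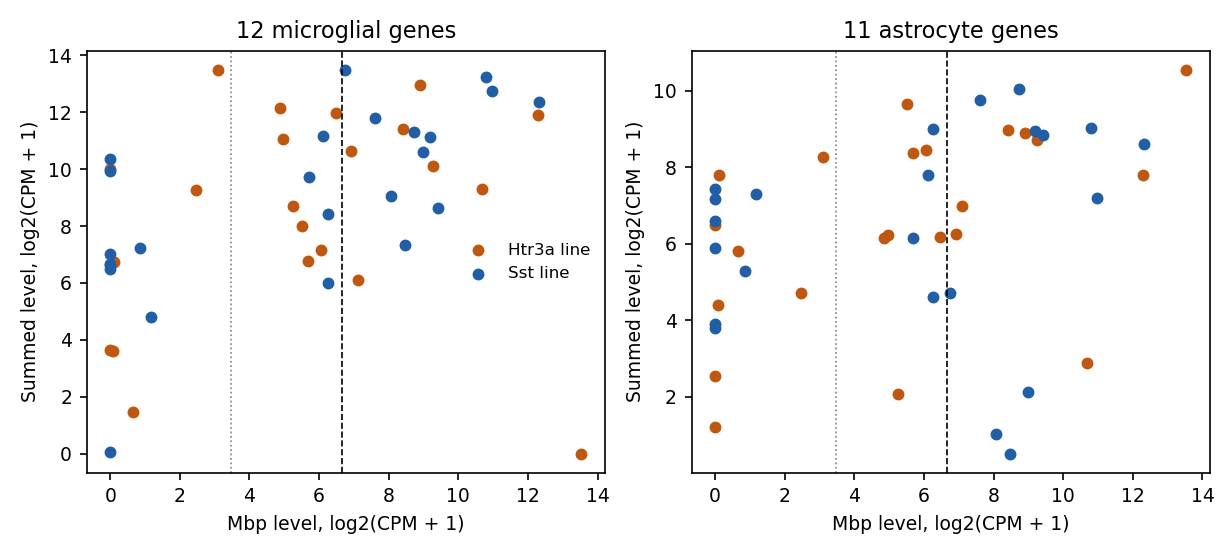
Summed level, log2(CPM + 1), of 12 microglial genes (left) and 11 astrocyte genes (right) against the Mbp level of the same library, one point per library for all 46, coloured by driver line, with vertical lines at 10 and 100 CPM of Mbp. The microglial sum is at least 1000 CPM in 13 of the 19 libraries right of the dashed line and in 3 of the 16 left of the dotted line, and the library furthest right has a microglial sum of 0.

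Other genes at the top of the ranking are known from microglia or astrocytes. Laptm5, a lysosomal protein of haematopoietic cells and microglia, differed by 4.23, Apoe, the lipid carrier of astrocytes and microglia, by 4.04, and Sparc and Sepp1, the selenium carrier selenoprotein P, by 3.96 and 3.94. Slc6a15, a neutral amino acid transporter of neurons, ran from 0 to 790 CPM with a median of 150 in the Mbp-high libraries and from 0 to 127 CPM with a median of 0 in the Mbp-low ones. It was read in 16 of 19 and 6 of 16 libraries, and its difference was 4.37. Ctps, which makes CTP, differed by 3.92. The 12 genes with the highest Spearman correlation with Mbp over the 46 cells were Siglech, Mobp, Tnrc6a, Zscan18, Mfsd11, Ctps, Apoe, C1qc, Aif1, Slc6a15, Gabpa and Brms1l, with rho from 0.51 to 0.55. Siglech encodes a lectin of microglia and Gabpa an ETS transcription factor. Tnrc6a, a scaffold of microRNA silencing, was read in all 19 Mbp-high libraries at 0.52 to 456 CPM and in 12 of 16 Mbp-low ones at up to 95.7 CPM. Of 169 genes chosen by the naming rule and placed in the annotation, 53 have exons that overlap another gene model, whose reads may have been counted with theirs or left out. Among them are Trf, Enpp2, Cryab, Sepp1, Tnrc6a, Mfsd11, Gabpa, Map2, Maf, Dlx6, Sptbn4, Cadm2, Ap1ar and Fam192a.

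Of the 11 astrocyte genes, 8 reached the mean. Past the mark upward were 4 and downward 0, against 18.4% and 8.29% of all genes. The median difference was 0.95 over the 8 that reached the mean and 0.75 over all 11. Aldoc, the brain aldolase of astrocytes, was at 0 to 701 CPM with a median of 112 in the Mbp-high libraries and at 0 to 137 CPM with a median of 0 in the Mbp-low ones, a difference of 2.68. Gfap, the astrocyte intermediate filament, was read in 5 Mbp-high and 0 Mbp-low libraries, whereas the water channel Aqp4 was read in 1 of each. The summed level ran from 0.42 to 1497 CPM (median 393) and from 1.32 to 308 CPM (median 56.9). Of the 8 vascular genes 0 reached the mean of 0.5, and of the 5 blood cell genes 2 reached it and 0 were past the mark. Markers of glutamatergic neurons had 1 of 8 genes past the mark upward, against 18.4% of all genes. That gene was Fibcd1 at 1.03, which fell below the mark when any 1 of 19 libraries was left out.

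Because the microglial genes moved with Mbp, the comparison was repeated with the libraries whose microglial sum was below 1000 CPM, an alternative that left 6 Mbp-high and 13 Mbp-low libraries. The median over all genes was then -0.31. Of the 6, 3 (Htr3a line replicate 21 and Sst line replicates 3 and 21) held none of Mobp, Cnp, Mag, Mog and Mal at 10 CPM or more. Mobp was read in 2 of the 6, Htr3a line replicate 4 at 1449 CPM and Sst line replicate 1 at 101 CPM. Its difference was 2.85 there, and 1.32 without Htr3a line replicate 4, the library with 4 Gad1 reads. The differences of Cnp, Trf and Gltp were -0.63, -0.43 and -0.84, and each rests on few libraries. That of Cnp ran from -1.48 without Htr3a line replicate 19 to -0.20 without Htr3a line replicate 4 or any of the 3 libraries lacking these genes. That of Trf was 0.013 without Sst line replicate 6, and that of Gltp was -0.43 without Htr3a line replicate 18. The medians of the sheath list, -0.38, and of the astrocyte list, 0.03, changed sign when 1 library was left out. Without Htr3a line replicate 4 they were 0.20 and -0.69. Slc6a15, Ctps and Tnrc6a kept differences of 4.54, 3.57 and 3.58. The part of microglial or astrocyte RNA in the differences of other genes was not tested.

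**Figure D4:**
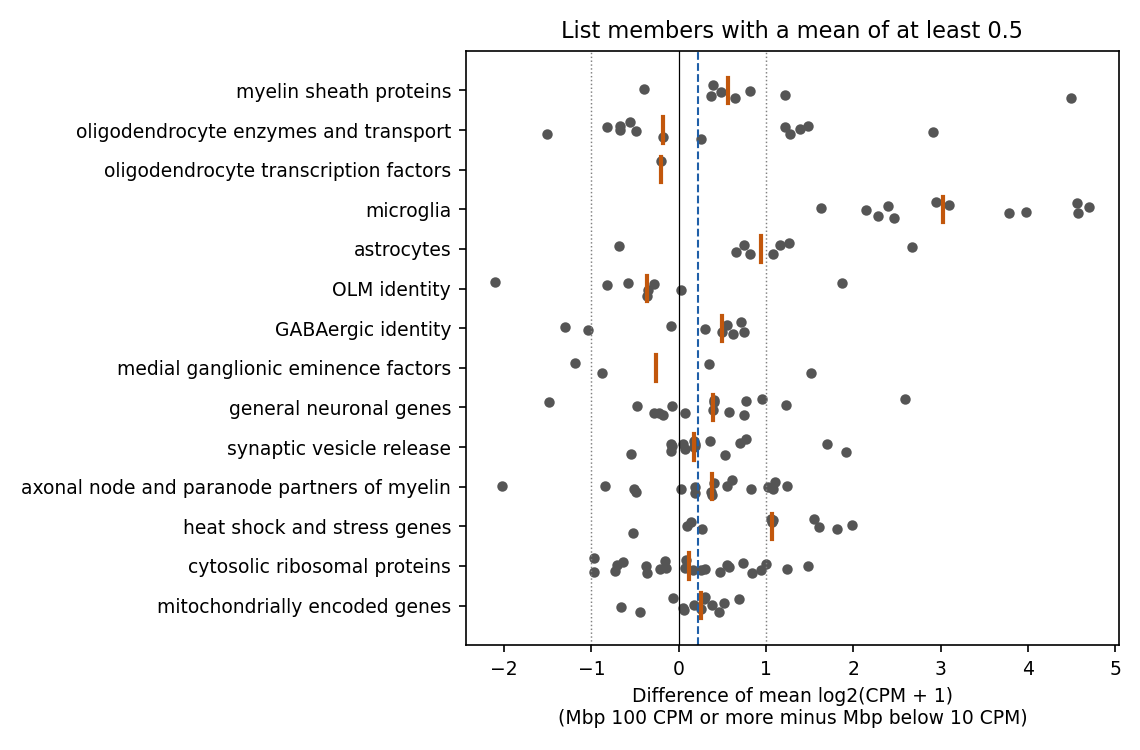
Difference in mean log2(CPM + 1), Mbp-high minus Mbp-low, of each gene (point) with a mean of at least 0.5 in 14 gene lists, with the list's median as an orange bar, the median of all 11029 genes as a dashed blue line and dotted lines at -1 and 1. The 12 microglial genes all lie right of 1, and the medians of the neuronal lists lie between -1 and 1.

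With both lines together, general neuronal genes were past the mark at shares near those of all genes, but the lines differed in direction. Of 16 such genes, all reached the mean. Past the mark upward were 2 (Map2 and Elavl4), against 18.4% of all genes, and downward 1 (Nefh), against 8.29%. Their median difference was 0.40, beside 0.22 over all genes, and it changed sign with 1 library: it was -0.15 without Htr3a line replicate 20, and leaving out Htr3a line replicate 6 gave 0.24. It was 0.98 within the Htr3a line and -0.38 within the Sst line. In the Htr3a line 8 of the 16 were past the mark upward, against 35.6% of all genes, and 0 downward, against 11.3%. In the Sst line 1 was past it upward, against 20.3%, and 4 downward, against 20.8%. The difference between the lines was not tested. Their summed level had medians of 11513 and 13467 CPM. Snap25, a core protein of synaptic vesicle fusion, ran from 2709 to 9070 CPM with a median of 4829 in the Mbp-high libraries and from 1649 to 8037 CPM with a median of 5582 in the Mbp-low ones. The ranges coincided almost fully, and the difference was -0.08. Map1b, a microtubule protein, showed the same overlap, with a difference of -0.23.

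Map2, a microtubule protein of dendrites and somata, had the largest difference of the general neuronal genes. It was read in all 19 Mbp-high libraries at 33.9 to 788 CPM with a median of 171, and in 13 of 16 Mbp-low ones at 0 to 210 CPM with a median of 82.6. The 3 libraries without a read were all Mbp-low, and the rest overlapped. The difference was 2.59, with 2.75 in the Htr3a line and 2.33 in the Sst line, and it was 1.36 among libraries with a microglial sum below 1000 CPM. There it fell to 0.86 without Sst line replicate 21 and to 0.88 without Htr3a line replicate 18. Elavl4, a neuronal RNA-binding protein, differed by 1.23, but by 2.70 in the Htr3a line and -0.09 in the Sst line. It fell below the mark to 0.88 without Sst line replicate 17, to 0.89 without Htr3a line replicate 6 and to 0.97 without Htr3a line replicate 20. Nefh, the heavy neurofilament, differed by -1.49, and the light and medium chains Nefl and Nefm, whose exons overlap each other on opposite strands, by -0.48 and 0.96.

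Genes of OLM and inhibitory identity had a median difference of -0.08 over 17 genes. It ran from -0.38 to 0.08 when 1 library was left out, so it had no settled sign. It was 0.19 in the Htr3a line and -0.65 in the Sst line. Both values lay below the medians over all genes, 0.51 and -0.01. Of the 8 OLM identity genes, 3 were past the mark upward and 1 downward in the Htr3a line, against 35.6% and 11.3% of all genes. In the Sst line 1 was past it upward and 4 downward, against 20.3% and 20.8%. This difference between the lines was not tested. Sst ran from 1726 to 28653 CPM with a median of 8413 in the Mbp-high libraries and from 1274 to 103853 CPM with a median of 14390.3 in the Mbp-low ones, a difference of -0.82 with wide overlap. Gad1 and Gad2, which make GABA, differed by 0.31 and 0.63, and Slc32a1, the vesicular GABA transporter, by 0.55. The homeobox factors Dlx5 and Dlx6 differed by -1.30 and -1.03, while Dlx1 and Dlx2 differed by 0.72 and 0.75. Dlx6 was at -0.71 without Sst line replicate 23, and also missed the mark without Htr3a line replicate 2, Htr3a line replicate 9 or Sst line replicate 12. Pnoc, the precursor of nociceptin, was read in 7 Mbp-high and 11 Mbp-low libraries and differed by -2.10, although CPM summed over each group was 100.02 and 97.8. Npy, a peptide of many interneurons, differed by 1.87 the other way. Of the factors of the medial ganglionic eminence, where OLM cells arise, Maf differed by -1.19 and Sox6 by 1.52. The difference of Maf was -0.84 without Htr3a line replicate 20, -0.96 without Sst line replicate 5 and -0.98 without Sst line replicate 23.

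**Figure D5:**
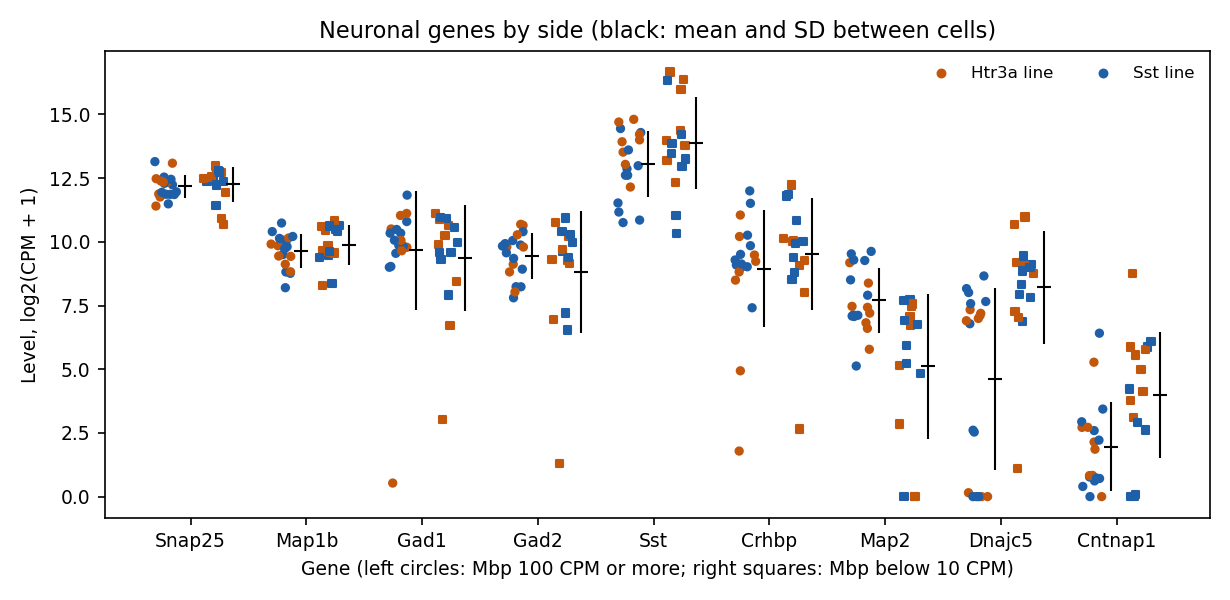
Level, log2(CPM + 1), of 9 neuronal genes in each Mbp-high library (circles, n = 19) and Mbp-low library (squares, n = 16), coloured by driver line, with the mean and SD between cells in black. Snap25 and Map1b overlap almost fully, all Mbp-high circles of Map2 lie above 0, and Dnajc5 and Cntnap1 lie lower among the circles.

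Genes of axonal proteins that face myelin at nodes and paranodes were past the mark at shares near those of all genes. Of 17 such genes, all reached the mean and 13 had a positive difference. Past the mark upward were 4 (Ank3, Sptbn4, Cadm2 and Cntnap2, at 1.24, 1.11, 1.08 and 1.02), against 18.4% of all genes. Past it downward was 1, against 8.29%. The median was 0.38, beside 0.22 over all genes. It was 0.64 in the Htr3a line and 0.01 in the Sst line, beside 0.51 and -0.01 over all genes. Ank3 fell to 0.92 without Htr3a line replicate 6 or 18, and Sptbn4, Cadm2 and Cntnap2 fell below the mark when any 1 of 8, 15 and 20 libraries was left out. Cadm2 and Cntnap2 had opposite signs in the 2 lines. The 1 downward was Cntnap1, the paranodal protein Caspr that binds glial neurofascin across the axon-glia junction. It ran from 0 to 84.2 CPM with a median of 2.63 in the Mbp-high libraries and from 0 to 431 CPM with a median of 17.03 in the Mbp-low ones. It was at 10 CPM or more in 2 of 19 and 10 of 16 libraries, and the difference was -2.02, with -3.19 in the Htr3a line and -0.83 in the Sst line. Its exons overlap a gene of the other strand.

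Several genes of neuronal and general function were lower in the Mbp-high libraries. Among the genes kept by the naming rule, the 12 lowest differences ran from -3.76 to -2.78. They were those of Cers5, Dnajc5, Rbbp5, Rab3gap1, Psmg1, Pdp1, Fam192a, Tmem18, Ap1ar, Cmc2, Trmt10b and Cyr61. Dnajc5, the cysteine string protein that protects synaptic vesicle fusion proteins, was at 0 to 403 CPM with a median of 119 in the Mbp-high libraries and at 1.14 to 2010 CPM with a median of 447 in the Mbp-low ones. It was read in 14 of 19 and 16 of 16 libraries. The difference was -3.60, with -3.55 in the Htr3a line and -3.69 in the Sst line, and it was -4.19 among libraries with a microglial sum below 1000 CPM. Cers5, a ceramide synthase, was read in 9 of 19 and 15 of 16 libraries, and differed by -3.76. Rab3gap1, a regulator of the vesicle GTPase Rab3, differed by -3.55.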

How the data were processed

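Raw read counts per gene were deposited by the authors for 46 cells, for 22880 Ensembl identifiers and, used here, for 22800 symbols. Per the submitters' processing notes, reads were handled with Trimmomatic, STAR and featureCounts on GRCm38. Versions, annotation and strandedness: not given in the sources used here. The deposited normalized table is a linear signal, and 100% of its values above 0 equalled, to within 0.1%, the count over a factor of the cell. Counts were scaled to CPM and compared as log2(CPM + 1) with Python 3.11.15, numpy 2.4.6 and pandas 2.3.3. Intervals are exact Clopper-Pearson (95%) and, like the limits from 0 cells (3 cells of the total), cover counting error only, and no molecular identifiers are named. Alternative scalings used TMMwsp in edgeR 4.0.16 and poscounts in DESeq2 1.42.0. The calculation of the differences was checked on simulated counts with known changes. Of 1035 library pairs, 0 were identical.

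The members and the 28 gene lists were chosen with earlier results of these data known. 1 list had no measured gene, and 321 of 330 listed symbols matched Ensembl rows. Named genes are all members of the myelin, oligodendrocyte, OLM, GABAergic, general neuronal and axonal lists and up to 3 members with the largest difference of each other list. To these come the 12 highest and 12 lowest differences and the 12 highest correlations with Mbp among genes read in at least 12 cells. Some genes are not reported here and are left out of the lists, their sums and their medians. Other genes were named after their values were seen. Alternatives varied the Mbp limits, pseudocount, scaling, depth, table, filter, summary, line and cells.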

Additional observations from a re-analysis of the deposited data

Results flagged for a closer look

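Groups of 8 libraries (both Htr3a-line groups and the Sst-line Mbp-low group) were checked in 34 combinations of group and measure. A library stood out where its gap to the nearest other exceeded 0.526 of the range, Dixon's critical value. Gap and range were taken on log2(CPM + 1) for Mbp and summed levels, and on plain numbers for reads and genes read. Levels below are printed in CPM. 5 stood out, where chance alone sets off about 1 check in 20 if values are normally distributed, which was not checked. Among Htr3a-line Mbp-low libraries, replicate 20 had 3391829 reads where the others had at least 13875764, and its oligodendrocyte enzyme and transport genes summed to 2.06 CPM where the others were at 168 to 860 CPM. In the same group, replicate 6 had a summed sheath level without Mbp of 0.0601 CPM where the others were at 241 to 1358 CPM. Among Sst-line Mbp-low libraries, replicate 17 had a summed sheath level of 0 CPM, with 0 reads of the list, where the others were at 382 to 649 CPM. Among Htr3a-line Mbp-high libraries, replicate 4 had 4581 CPM of heat shock and stress genes where the others were at 7501 to 10600 CPM.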

How the results depend on the processing

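Of the 78 named genes past the 2-fold mark, 76 kept their sign within the Htr3a line and 75 within the Sst line. Among cells with a microglial sum below 1000 CPM 72 kept it. Of the 78, 0 changed sign when any 1 of the 35 libraries was left out. These genes were counted for a difference past the mark over the same libraries, so agreement of sign was largely set in advance. No share over all genes was computed. Some calls were lost: Cntnap2 and Fibcd1 fell below the mark when any 1 of 20 and 19 libraries was left out. Genes past the mark upward numbered 3204 with Mbp-low libraries limited to those without an Mbp read, 527 with a pseudocount of 10 and 3959 in the Htr3a line. Downward they numbered 546 and 2145 with Mbp-high limits of 50 and 500 CPM, 166 with a pseudocount of 10, 2243 in the Sst line and 3168 below 1000 CPM of microglial genes. Alternatives without Htr3a line replicates 4 and 20, without the 4 Mbp-high libraries lacking 5 other myelin genes, with groups set by the sum of those 5 (Mobp, Cnp, Mag, Mog and Mal), or without single libraries among those below 1000 CPM of microglial genes were chosen after seeing the data. Leaving out 1 library gave 1767 to 2290 upward and 801 to 1194 downward. The sheath median was 1.17 without Mbp reads in the Mbp-low libraries, 1.23 with groups set by those 5 genes (which are in the list, so that this value is no independent check), 1.11 with summed CPM, 1.08 in the Htr3a line with the minimum applied there, and -0.38 below 1000 CPM of microglial genes. The astrocyte median was 0 from medians, 2.40 from summed CPM, 1.81 in the Htr3a line and 0.027 below 1000 CPM of microglial genes. There the median number of genes read after thinning to 5000000 reads was 5015 in 6 Mbp-high and 6725 in 12 Mbp-low libraries (-1710), and 5313.5 and 6754 unthinned over 6 and 13. Signs reversed below 1000 CPM of microglial genes for Cnp (-0.63), Trf (-0.43), Gltp (-0.84), Cntnap2 (-1.13) and Id2 (-1.49). They reversed with summed CPM for Pnoc (0.032), in the Sst line for Elavl4 (-0.092), Cadm2 (-0.56) and Kcnd2 (-1.37), in the Htr3a line for Cntnap2 (-0.44) and Grik3 (0.40), and with 500 CPM for Gabrb1 (-0.034). With groups set by the sum of the 5 myelin genes they reversed for Pnoc (0.53), Npy (-1.90), Dlx5 (0.71), Dlx6 (0.25), Fibcd1 (-0.14), Kcnd2 (-0.025) and Cacna2d2 (-0.34). The cause was not tested. A planned grouping by the sum of all 15 other sheath genes left 43 and 2 libraries, so no comparison was made. No paired analysis was possible because replicate numbers only name cells and the groups were set by Mbp. Genes at a few CPM rest on cells with and without a read, and depth limits their differences.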

Other observations

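Heat shock and stress genes, which encode chaperones and factors induced by misfolded protein, had 7 of 12 members past the 2-fold mark upward and 0 downward, against 18.4% and 8.29% of all genes, with a median difference of 1.07 over the 11 that reached the mean. Within the Htr3a line 6 members were past the mark upward, against 35.6% of all genes, and within the Sst line 5, against 20.3%. Hsph1, a partner of Hsp70, differed by 1.99, Hspa1a, an inducible Hsp70, by 1.81, and Hspa5, the chaperone of the endoplasmic reticulum, by 1.61. Hspa5 ran from 3.12 to 1834 CPM with a median of 688 in the Mbp-high libraries and from 0 to 1487 CPM with a median of 589 in the Mbp-low ones, so the medians were close and the groups overlapped. The summed level of the 12 genes had medians of 8380 and 8927 CPM, in the other direction.

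Among 15 calcium channel genes, of which 11 reached the mean, 3 were past the mark upward and 1 downward. The shares of all genes that reached the mean were 18.4% and 8.29%. Cacna1a, the pore of P/Q-type channels at release sites, was read in 19 of 19 Mbp-high libraries at 0.22 to 574 CPM and in 10 of 16 Mbp-low ones at 0 to 270 CPM, a difference of 2.57 that was 2.63 in the Htr3a line and 2.43 in the Sst line. Cacna2d2, an auxiliary subunit, differed by 1.98 and Cacnb4, another, by -1.48. Pclo and Rims2, scaffolds of the active zone, differed by 1.70 and 1.91. They were the 2 of 16 synaptic vesicle release genes past the mark upward, against 18.4% of all genes, with 0 downward, against 8.29%. Cholesterol synthesis is a pathway that myelinating cells use heavily and neurons also run. Of its 12 genes, 1 was past the mark upward (Hmgcs1, at 1.32), against 18.4% of all genes. Past it downward were 3, against 8.29%, among them Idi1 at -1.48 and Fdps at -1.32. The difference of Hmgcs1 fell to 0.97 without Htr3a line replicate 6, and also below the mark without Htr3a line replicate 2 or Sst line replicate 17. Exons of Hspa1a, Cacna1a, Cacna2d2, Cacnb4, Pclo, Hmgcs1, Idi1 and Fdps overlap other gene models. Of 13 mitochondrially encoded genes 0 were past the mark in either direction with both lines together, but the lines differed. In the Htr3a line 0 were past it upward and 2 downward, against 35.6% and 11.3% of all genes, with a median of -0.34. In the Sst line 4 were past it upward and 0 downward, against 20.3% and 20.8%, with a median of 0.83.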
